A study of Mus musculus with 6 samples.

Results

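The 10 genes described here encode enzymes of serine and glycine synthesis, of the folate cycle that carries one-carbon units, and of proline synthesis: *Phgdh*, *Psat1*, *Psph*, *Shmt1*, *Shmt2*, *Mthfd1*, *Mthfd2*, *Mthfd1l*, *Aldh1l2* and *Pycr1*. They were chosen by name from these pathways, with earlier results of these data known. All 10 are among the 19255 genes of the expression table. RNA of 4T1 cells, a mouse mammary carcinoma line of BALB/c origin, went into 6 sequencing libraries, 3 from controls (sgCtrl, labelled NTC, genotype WT) and 3 from *Uba6* knockout cells (sgUba6). UBA6 is an E1 enzyme for ubiquitin and for the ubiquitin-like protein FAT10. The knockout was made in Cas9-expressing 4T1 cells with a lentiviral guide RNA and puromycin selection. Neither a clone nor a pool is named in the sources, and all cells grew in RPMI medium with serum. One treatment text, naming the *Uba6* guide and the Cas9 vector, is attached to the samples of both groups, so they were told apart by title and genotype. The study states in general terms that its results were repeated biologically, without saying whether the libraries of a group came from separate cultures, so the p-values below measure the spread between these libraries, which may be technical.

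PHGDH, PSAT1 and PSPH turn the glycolytic intermediate 3-phosphoglycerate into serine in consecutive steps. Serine hydroxymethyltransferases split serine into glycine and a one-carbon unit bound to tetrahydrofolate, and the MTHFD enzymes carry that unit through its oxidation states in the mitochondrion and the cytosol, where it serves purine, thymidylate and methionine synthesis. In mammalian cells the transcription factor ATF4 is known to drive many genes of serine synthesis and of mitochondrial folate metabolism.

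Levels are given as FPKM, a fragment number scaled to exon length and to library size, which allow genes to be compared per length. Log2 fold changes compare sgUba6 with sgCtrl on the scale log2(FPKM + 0.5) and come with a standard error (SE) and a Benjamini-Hochberg adjusted p-value from limma, fitted over the 12190 genes that reached 0.5 FPKM in 3 or more libraries. A gene was called at an adjusted p under 0.05. 9 of the 10 enzymes could be tested, since *Aldh1l2* lay below the filter. All 9 were lower in sgUba6 cells, where 22.7% of all genes tested were called lower and 24.7% were called higher. Their median log2 fold change was -0.88, against 0.01 over all genes tested. For all 9 the libraries of the groups did not overlap, which held with sgUba6 lower for 27.7% of the genes tested. The enzymes were chosen with earlier results known, so the contrast with all genes describes the set and does not test it. The fall was deepest for *Mthfd2*, *Psph*, *Psat1* and *Phgdh*, the 4 enzymes with a log2 fold change of -1 or less, a size that 1.44% of the genes tested reached with a call. It was smallest for *Mthfd1l*.

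**Figure D1:**
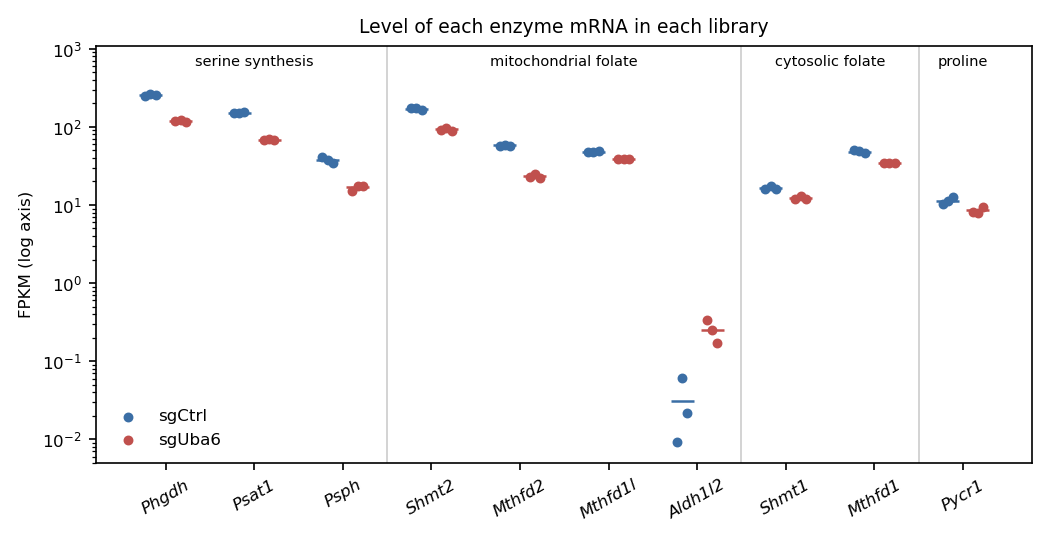
Level of each of the 10 enzyme mRNAs in each library, as FPKM on a log axis, with 3 sgCtrl libraries in blue and 3 sgUba6 libraries in red. Horizontal lines mark group means. The sgUba6 points lie below the sgCtrl points for 9 genes and above them for *Aldh1l2*, which stays under 0.5 FPKM in every library.

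*Phgdh* (ENSMUSG00000053398, chromosome 3 of GRCm38, 98313170 to 98339990, minus strand) encodes phosphoglycerate dehydrogenase, the enzyme that commits 3-phosphoglycerate to serine. It was the most abundant of the 10 mRNAs in both groups. The sgCtrl libraries held 249.6, 262.4 and 253.5 FPKM and the sgUba6 libraries 119.5, 121.1 and 116.7 FPKM. Every sgUba6 library was thus far below the lowest control library, and the libraries of a group differed little. The mean fell from 255.2 ± 6.54 to 119.1 ± 2.19 FPKM (SD, n = 3 each), a decrease of 53.3% and a log2 fold change of -1.10 (SE 0.03, 95% interval -1.18 to -1.02, limma adjusted p = 4.61e-06). It ranked 133 from the lowest fold change of the 12190 genes tested.

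*Phgdh* has many processed pseudogenes in the mouse genome, so reads can be shared with them. In the annotation, 19 other genes matched a *Phgdh* transcript over at least 200 bases, at 90.4 to 98.7% identity, and 17 of them were processed pseudogenes. Of the 19, 11 were in the table and 6 could be tested, all of them called lower. The listed copies summed to 53.9 ± 2.29 FPKM in sgCtrl and 25.6 ± 0.528 FPKM in sgUba6 cells (SD, n = 3 each). Added to *Phgdh* they gave 309.1 ± 8.72 and 144.7 ± 1.73 FPKM, a log2 ratio of -1.09. The fall was of the same size with and without the copies. The copies are the smaller part of the sum and may hold reads of *Phgdh*, so their fall is not separate support. The split of reads between the gene and its copies is uncertain.

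*Psat1* (ENSMUSG00000024640, chromosome 19, 15904678 to 15947337, minus strand) encodes phosphoserine aminotransferase, which passes an amino group from glutamate to phosphohydroxypyruvate. The 3 control libraries held 151.9, 152.0 and 153.4 FPKM, those of sgUba6 cells 67.5, 70.9 and 67.9 FPKM. The groups lay far apart, with a spread inside each of only a few FPKM. The mean fell from 152.4 ± 0.879 to 68.7 ± 1.84 FPKM, or by 54.9%, with a log2 fold change of -1.14 (SE 0.03, limma adjusted p = 4.29e-06). A processed pseudogene, *Gm12611*, matches *Psat1* at 91.0% identity over 1056 bases.

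*Psph* (ENSMUSG00000029446, chromosome 5, 129765558 to 129787449, minus strand) encodes phosphoserine phosphatase, which makes the last step to serine. The sgCtrl libraries held 41.6, 37.9 and 34.9 FPKM and the sgUba6 libraries 15.2, 17.7 and 17.4 FPKM. The spread relative to the mean was wider than for the upstream enzymes, yet the lowest control library had a level well above the highest sgUba6 library. On average it fell from 38.2 ± 3.37 to 16.8 ± 1.35 FPKM, or by 56.0%, with a log2 fold change of -1.16 (SE 0.08, limma adjusted p = 7.83e-05). Its exons overlap those of *Cct6a*, a chaperonin subunit gene on the other strand, over 452 bases or 10.4% of the *Psph* exon length. *Cct6a* was much more abundant, at 415.7 ± 7.25 FPKM in sgCtrl and 355.0 ± 13.1 FPKM in sgUba6 cells (log2 fold change -0.23, SE 0.04, limma adjusted p = 0.00233). The kits named for these libraries differ in whether they mark the strand, so the part of *Cct6a* reads in the *Psph* value was not tested.

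The serine synthesis mRNAs fell by like amounts. The level of *Psat1* relative to *Phgdh* was 0.598 on average in sgCtrl and 0.577 in sgUba6 cells, and that of *Psph* relative to *Phgdh* was 0.1497 and 0.1409. The libraries of the groups overlapped for both ratios, with log2 differences of -0.05 and -0.07 (exact two-sided permutation test, p = 0.3 and 0.6, both 0.6 after Benjamini-Hochberg adjustment over these 2 ratios). These ratios were chosen after the values had been seen. With 3 libraries against 3, the smallest p such a test can give is 0.1. Summed over the serine synthesis enzymes, the level was 445.8 ± 5.69 FPKM in sgCtrl and 204.6 ± 4.35 FPKM in sgUba6 cells, 54.1% lower.

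The mitochondrial arm of the folate cycle fell unevenly. *Shmt2* (ENSMUSG00000025403, chromosome 10, 127517123 to 127522444, minus strand) encodes the mitochondrial serine hydroxymethyltransferase, which makes glycine and 5,10-methylene-tetrahydrofolate. Control libraries held 173.3, 172.3 and 165.3 FPKM of it, and sgUba6 libraries 91.5, 96.8 and 89.7 FPKM. All sgUba6 libraries were far below the control libraries. The mean fell from 170.3 ± 4.37 to 92.6 ± 3.67 FPKM, or by 45.6% (log2 fold change -0.88, SE 0.04, limma adjusted p = 1.61e-05).

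*Mthfd2* (ENSMUSG00000005667, chromosome 6, 83305691 to 83325908, minus strand) encodes the mitochondrial methylene-tetrahydrofolate dehydrogenase and cyclohydrolase, an enzyme of embryonic and tumour tissue. The sgCtrl libraries held 57.3, 58.8 and 57.2 FPKM and the sgUba6 libraries 22.5, 25.1 and 22.3 FPKM. No library of one group came near those of the other. Mean levels fell from 57.8 ± 0.899 to 23.3 ± 1.54 FPKM, a decrease of 59.7%, the deepest of the 10 (log2 fold change -1.29, SE 0.05, 95% interval -1.42 to -1.17, limma adjusted p = 9.52e-06). It ranked 78 from the lowest fold change.

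*Mthfd1l* (ENSMUSG00000040675, chromosome 10, 3973118 to 4167081, plus strand) encodes the mitochondrial formyl-tetrahydrofolate synthetase, which releases formate for export. Levels of 47.5, 47.8 and 48.5 FPKM in the controls stood against 39.0, 39.3 and 38.8 FPKM in sgUba6 cells. The groups did not overlap because each was very tight, although the difference was small. The mean fell from 47.9 ± 0.516 to 39.0 ± 0.279 FPKM, or by 18.6% (log2 fold change -0.29, SE 0.03, 95% interval -0.37 to -0.21, limma adjusted p = 0.00057). *Mthfd2* and *Mthfd1l* catalyse successive steps, and the intervals of their fold changes lay far apart.

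*Aldh1l2* (ENSMUSG00000020256, chromosome 10, 83487450 to 83534140, minus strand) encodes the mitochondrial formyl-tetrahydrofolate dehydrogenase, which oxidises the one-carbon unit to carbon dioxide. It was the only one of the 10 that was higher in sgUba6 cells, and it was close to absent. The sgCtrl libraries held 0.00933, 0.0610 and 0.0220 FPKM and the sgUba6 libraries 0.337, 0.250 and 0.170 FPKM. Every sgUba6 library was above every control library, and the means were 0.0308 ± 0.0269 and 0.252 ± 0.0836 FPKM, a ratio of 8.20. Without sgCtrl library 2 the ratio was 16.1, and without any other single library it was 6.08 to 9.54, a check added after the values had been seen. In a fit with no filter on low values the log2 fold change was 0.50 (limma adjusted p = 0.00788), where 16.2% of 19255 genes were called higher. A constant of 0.5 FPKM is larger than every value of this gene, so the fitted fold change understates the ratio. Its exons overlap those of *D10Wsu102e* on the other strand over 1056 bases, 14.1% of its exon length. *D10Wsu102e* was at 0.673 ± 0.0334 and 0.660 ± 0.0253 FPKM and was not called (limma adjusted p = 0.907).

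The cytosolic enzymes fell less than *Shmt2* and *Mthfd2*. *Shmt1* (ENSMUSG00000020534, chromosome 11, 60788104 to 60811718, minus strand), the cytosolic serine hydroxymethyltransferase, had 16.1, 17.3 and 16.1 FPKM in the controls and 12.1, 12.9 and 12.0 FPKM in sgUba6 cells. Its mean fell from 16.5 ± 0.659 to 12.3 ± 0.503 FPKM, or by 25.2% (log2 fold change -0.40, SE 0.06, limma adjusted p = 0.00113). *Mthfd1* (ENSMUSG00000021048, chromosome 12, 76255298 to 76319803, plus strand) encodes the trifunctional cytosolic enzyme that takes formate up into the folate pool and interconverts the folate-bound units. Control libraries held 50.02, 48.9 and 45.6 FPKM, and sgUba6 libraries 34.9, 34.2 and 34.7 FPKM. On average it fell from 48.2 ± 2.27 to 34.6 ± 0.345 FPKM, or by 28.2% (log2 fold change -0.47, SE 0.05, limma adjusted p = 0.000252). For both genes the sgUba6 libraries formed a separate, lower group.

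*Pycr1* (ENSMUSG00000025140, chromosome 11, 120635712 to 120643769, minus strand) encodes a mitochondrial pyrroline-5-carboxylate reductase, the last enzyme of proline synthesis. Controls had 10.4, 11.1 and 12.5 FPKM, and sgUba6 cells 8.09, 7.95 and 9.54 FPKM. The groups came closest here, the highest sgUba6 library being not far under the lowest control library. Mean levels fell from 11.3 ± 1.09 to 8.53 ± 0.880 FPKM, or by 24.8% (log2 fold change -0.39, SE 0.10, limma adjusted p = 0.0144), the weakest test result of the 9.

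**Figure D2:**
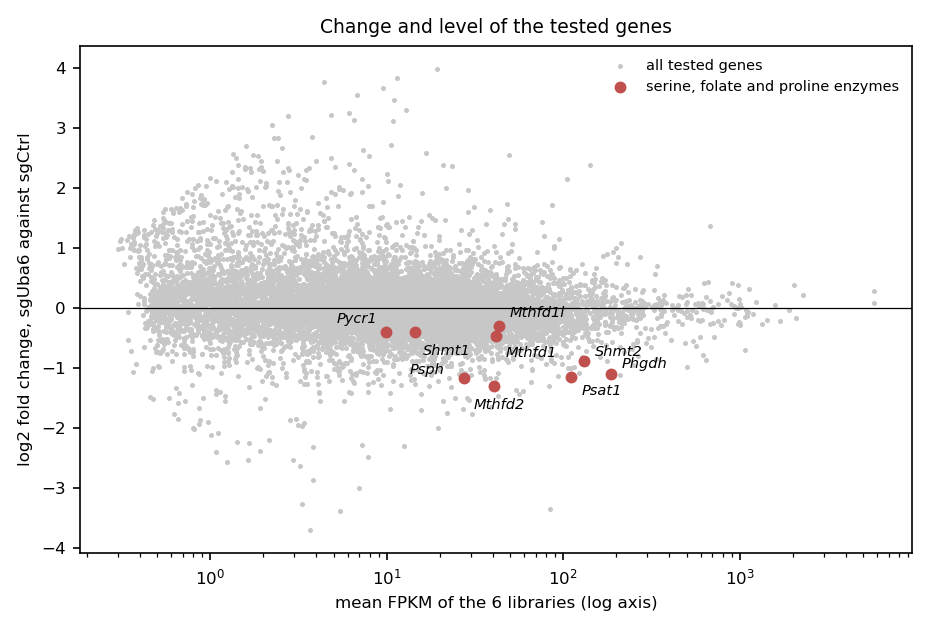
Log2 fold change of sgUba6 against sgCtrl for each of the 12190 genes tested, against the mean FPKM of the 6 libraries on a log axis, with the 9 enzymes tested in red. The abundant *Phgdh*, *Shmt2* and *Psat1* lie at the lower edge of the genes of like level, and *Mthfd1l*, *Shmt1* and *Pycr1* nearer to 0.

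The order of levels differed between the groups around *Mthfd2*, *Mthfd1* and *Mthfd1l*. In sgCtrl cells the order was *Phgdh*, *Shmt2*, *Psat1*, *Mthfd2*, *Mthfd1*, *Mthfd1l*, *Psph*, *Shmt1*, *Pycr1* and *Aldh1l2*, in which the libraries of *Mthfd1* and *Mthfd1l* overlapped and no other neighbours did. In sgUba6 cells *Mthfd2* moved from place 4 to place 6, under *Mthfd1l* and *Mthfd1*. *Mthfd1l* then lay above *Mthfd1*, the reverse of their order by mean in sgCtrl cells, and no neighbours overlapped. Summed over the mitochondrial folate enzymes, the level fell from 276.0 ± 4.36 to 155.2 ± 5.48 FPKM (43.8% lower), and over *Shmt1* and *Mthfd1* from 64.7 ± 2.51 to 46.9 ± 0.211 FPKM (27.4% lower). The 10 mRNAs together made up 0.219 to 0.223% of the FPKM sum of a control library and 0.116 to 0.121% of that of an sgUba6 library.

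Where an isozyme of like activity exists, the ratio of the isozymes was compared within each library. *Shmt2* relative to *Shmt1* was 10.8, 9.98 and 10.2 in the controls and 7.59, 7.49 and 7.45 in sgUba6 cells. *Mthfd2* relative to *Mthfd2l*, a second mitochondrial dehydrogenase found in adult tissues, was 7.31, 7.89 and 5.47 against 1.99, 3.02 and 2.45. Both ratios were lower in every sgUba6 library, by 0.47 and 1.45 on the log2 scale. *Mthfd1l* relative to *Mthfd1* moved the other way, from 0.950, 0.977 and 1.06 to 1.12, 1.15 and 1.12, a log2 difference of 0.18. For these pairs p was 0.1, the smallest the exact two-sided permutation test allows, and 0.133 after Benjamini-Hochberg adjustment over the 4 pairs compared, so none of these ratios passed 0.05. *Mthfd2l* itself was at 8.59 ± 1.63 FPKM in sgCtrl and 9.58 ± 1.57 FPKM in sgUba6 cells, and its log2 fold change of 0.15 was not called (SE 0.15, limma adjusted p = 0.451).

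**Figure D3:**
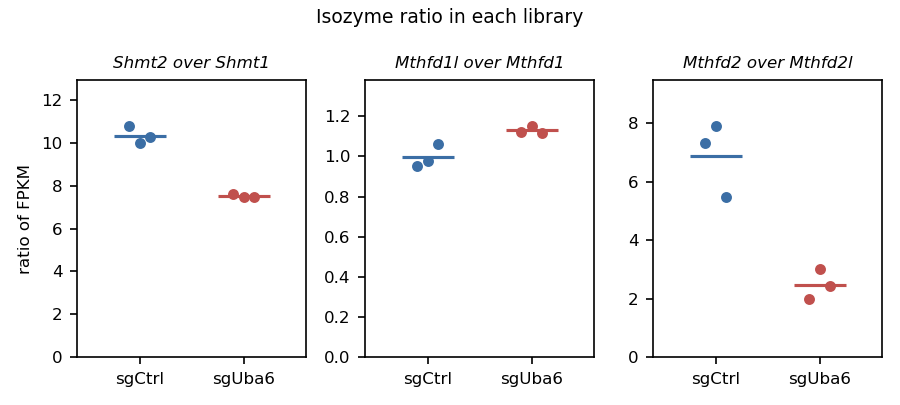
Ratio of the FPKM of an isozyme to that of its counterpart in each library, for 3 pairs, each panel on its own linear axis from 0. Lines mark group means. *Shmt2* over *Shmt1* and *Mthfd2* over *Mthfd2l* are lower in all 3 sgUba6 libraries, and *Mthfd1l* over *Mthfd1* is higher in all 3.

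The genes around these enzymes did not move as uniformly. Of 20 tested partners in folate and one-carbon metabolism, 9 were called lower, 3 higher and 8 were not called. Over all genes tested, 22.7% were called lower and 24.7% higher, shares against which the lists below can also be read. The calls of the partners thus leaned to lower, although their median log2 fold change was -0.03, close to the 0.01 of all genes. The largest falls were those of *Tyms*, the thymidylate synthase, from 20.4 ± 3.85 to 11.4 ± 0.841 FPKM (log2 fold change -0.80, SE 0.13, limma adjusted p = 0.00226), of *Slc25a32*, a mitochondrial folate carrier, from 10.0 ± 0.498 to 5.54 ± 0.227 FPKM (-0.80, SE 0.06, adjusted p = 0.000116), and of *Slc19a1*, the reduced folate carrier of the plasma membrane, from 15.4 ± 0.295 to 8.66 ± 0.938 FPKM (-0.80, SE 0.08, adjusted p = 0.000333). *Mthfs*, which recycles formyl-tetrahydrofolate, was at 1.04 ± 0.255 and 1.94 ± 0.605 FPKM, called higher with a log2 fold change of 0.64 (SE 0.21, limma adjusted p = 0.0449). That call was lost in 9 of 14 alternative fits, at adjusted p-values of 0.0508 to 0.128. The abundant enzymes of the list differed among themselves. *Atic*, of purine synthesis, fell from 126.0 ± 7.42 to 98.6 ± 1.03 FPKM (log2 fold change -0.35, limma adjusted p = 0.00107) and *Ahcyl1*, a relative of *Ahcy*, from 81.5 ± 4.15 to 66.2 ± 3.12 FPKM (-0.30, adjusted p = 0.00367). *Gart*, also of purine synthesis (67.9 ± 5.25 and 68.3 ± 1.53 FPKM), and *Ahcy* of the methionine cycle (63.1 ± 1.49 and 61.7 ± 1.09 FPKM) were not called.

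The transport list had the lowest median of the 6 lists, with 7 of 8 tested genes lower, none higher (0 also at an unadjusted limma p under 0.05) and a median of -0.63 on the log2 scale. *Slc6a9*, a glycine transporter, fell from 12.0 ± 1.14 to 5.36 ± 0.267 FPKM (log2 fold change -1.09, SE 0.08, limma adjusted p = 9.5e-05). The neutral amino acid transporters *Slc1a4* and *Slc1a5* fell from 19.8 ± 1.59 to 10.6 ± 0.746 FPKM and from 42.6 ± 0.994 to 23.6 ± 0.195 FPKM (log2 fold changes -0.87 and -0.84). *Sfxn2*, of the sideroflexin family that carries serine into mitochondria, fell from 4.59 ± 0.0518 to 2.52 ± 0.303 FPKM (-0.76), and its relative *Sfxn1*, the main mitochondrial serine carrier known from human cells, fell by 0.27 on the log2 scale. *Sfxn3* was the exception, at 41.7 ± 3.71 and 46.5 ± 1.66 FPKM, and was not called.

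Of 6 tested genes of glycine cleavage and serine catabolism, 3 were lower and 1 was higher (median -0.30). *Cth*, which makes cysteine from cystathionine, fell from 11.2 ± 0.497 to 4.40 ± 0.667 FPKM (log2 fold change -1.26, SE 0.10, limma adjusted p = 0.000131). *Gcat*, of threonine breakdown, fell from 58.4 ± 2.38 to 27.3 ± 1.24 FPKM (-1.08). *Gcsh*, the carrier protein of the glycine cleavage system, fell from 47.3 ± 1.63 to 32.4 ± 1.53 FPKM (-0.54). *Gcat* is listed under a pair of overlapping identifiers, so its level is uncertain. *Srr*, the serine racemase, rose from 4.56 ± 0.612 to 6.59 ± 0.518 FPKM (log2 fold change 0.49, SE 0.11, limma adjusted p = 0.0081). In proline metabolism 4 of 6 tested genes were lower and none was higher (median -0.37, with 0 higher at an unadjusted limma p under 0.05 too). *Prodh*, which starts proline breakdown, fell from 11.6 ± 1.66 to 4.04 ± 0.302 FPKM (-1.40) and *Aldh18a1*, which makes the precursor used by *Pycr1*, from 76.2 ± 1.92 to 38.9 ± 0.853 FPKM (-0.96). *Pycrl*, a reductase gene, fell less, by 0.27 on the log2 scale, and its call was lost without sgUba6 library 2 or 3 (limma adjusted p = 0.0641 and 0.0651).

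*Atf4* itself had 151.2, 136.1 and 158.1 FPKM in the controls and 69.2, 76.6 and 76.8 FPKM in sgUba6 cells. The control libraries were all far higher, and the mean fell from 148.4 ± 11.3 to 74.2 ± 4.34 FPKM (log2 fold change -0.99, SE 0.07, limma adjusted p = 6.37e-05). ATF4 is regulated largely at translation, which mRNA levels do not show. Of 26 tested ATF4 regulators and targets, 16 were lower, 3 higher and 7 not called, the median being -0.45 on the log2 scale. The list includes *Atf4* itself, which is among the 16 lower, and leaves out the enzymes above. The deepest falls were those of *Slc7a11*, the cystine and glutamate exchanger, from 5.91 ± 0.581 to 0.531 ± 0.0400 FPKM (-2.63, SE 0.10, limma adjusted p = 7.16e-06), and of *Stc2*, a secreted glycoprotein, from 6.67 ± 0.430 to 0.945 ± 0.136 FPKM (-2.31). The added constant is close to the sgUba6 level of *Slc7a11*, so its fitted value understates the fall, which was 11.1-fold on the FPKM scale and -3.25 as a log2 fold change with 0.1 FPKM added. *Chac1*, which degrades glutathione, fell from 34.0 ± 2.71 to 9.73 ± 0.442 FPKM (-1.75) and *Trib3*, a pseudokinase, from 41.4 ± 6.07 to 12.4 ± 1.09 FPKM (-1.69). The higher genes were *Cebpb* (log2 fold change 0.60, limma adjusted p = 0.0277) and the eIF2α kinase genes *Eif2ak3* (0.53, adjusted p = 0.000515) and *Eif2ak1* (0.18, adjusted p = 0.0368). Those not called were *Ddit3* (log2 fold change 0.13), *Ddit4* (0.16), *Eif2ak2* (0.09), *Eif2ak4* (-0.04), *Nupr1* (-0.32), *Ppp1r15a* (-0.38) and *Vldlr* (-0.38). The higher genes and those not called are named here after their values had been seen.

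Of 6 other tested regulators named for serine synthesis, 2 were lower, 1 was higher and 3 were not called (median 0.00). *Myc* fell from 96.5 ± 3.22 to 79.8 ± 2.95 FPKM (log2 fold change -0.27, SE 0.04, limma adjusted p = 0.0022) and *Trp53* from 20.6 ± 1.51 to 14.6 ± 2.11 FPKM (-0.49, adjusted p = 0.00959). The demethylase gene *Kdm4c* rose from 8.17 ± 0.386 to 10.7 ± 0.539 FPKM (0.37, adjusted p = 0.00333). Whether any of these regulators, or *Atf4*, acted on the enzymes was not tested.

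**Figure D4:**
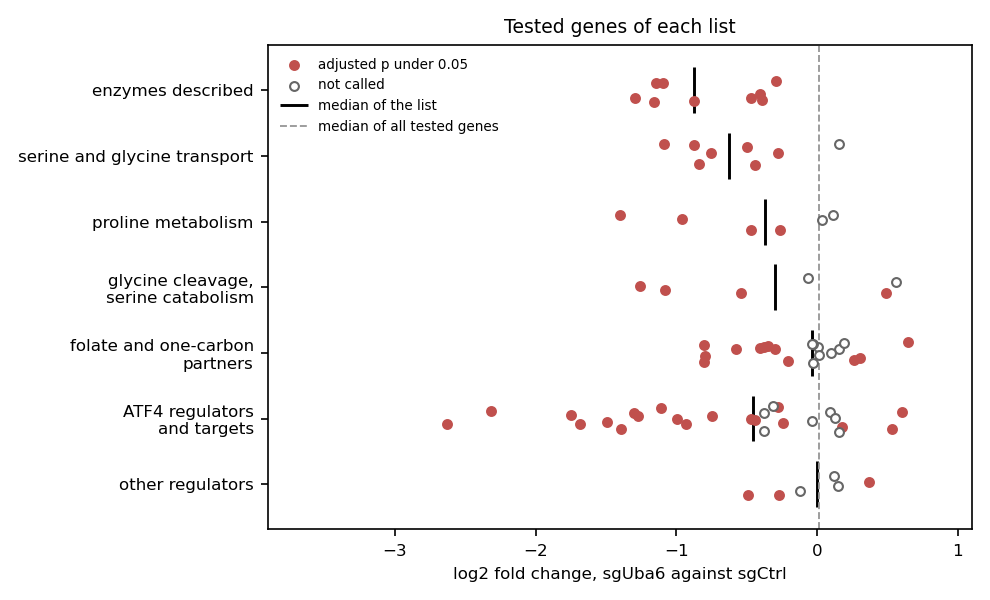
Log2 fold change of sgUba6 against sgCtrl for every tested gene of the enzymes described and of 6 lists of related genes, filled where the limma adjusted p is under 0.05. Black bars mark list medians, from -0.88 for the enzymes to 0.00 for the other regulators, and the dashed line the median of all genes tested, 0.01.

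The promoters of the enzymes were searched for short motifs on both strands. These were the composite C/EBP and ATF element core TGATGNAA, the MYC E-box CACGTG and the core of the NRF2 element TGACNNNGC. Windows ran from 250 bases before to 50 bases after each RefSeq start (GRCm38.p6). 9 of the 10 genes matched, with 10 windows because *Psat1* has a pair of starts. The windows of *Psat1*, *Mthfd2* and *Shmt1* lie inside the genes as annotated in the expression table. Those genes begin further upstream, at 15947337, 83325908 and 60811718 on the minus strand, and these outer starts were not searched. The *Psph* window (129787204 to 129787503) also lies mostly inside its gene, whose annotated start at 129787449 is near the window's outer end. TGATGNAA was present in 1 of the 9 genes, *Pycr1*, 103 bases before the start, against 4.51% of 27025 genes in the whole table (3.97% of 32851 windows) and 8 of 25 matched genes of the ATF4 list. CACGTG was in none of the windows of the enzymes and in 7.15% of all windows. TGACNNNGC was in 2 of the 9 genes, *Phgdh* and *Psph*, and in 13.99% of all genes (12.4% of all windows). The windows had a median GC content of 57.3%, against 52.7% over all windows, and a median of 15.5 CpG dinucleotides, against 7. A match is only a match of letters, and a missing match says only that these letters are not in this window.

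The 250 bases before the start are shown, 5′ to 3′, for *Phgdh*, *Psat1* (the upstream of its RefSeq starts) and *Mthfd2*, whose windows hold no TGATGNAA. The same stretch is shown for *Pycr1*, whose window holds it. They lie at chr3:98339970-98340219, chr19:15925060-15925309, chr6:83317605-83317854 and chr11:120643749-120643998, all on the minus strand. Capitals mark TGATGNAA on either strand.
*Phgdh*: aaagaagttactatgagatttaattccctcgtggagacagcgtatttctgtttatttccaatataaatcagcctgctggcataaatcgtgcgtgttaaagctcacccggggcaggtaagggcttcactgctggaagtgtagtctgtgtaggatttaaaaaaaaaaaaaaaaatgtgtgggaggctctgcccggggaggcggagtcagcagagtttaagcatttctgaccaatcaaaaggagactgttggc
*Psat1*: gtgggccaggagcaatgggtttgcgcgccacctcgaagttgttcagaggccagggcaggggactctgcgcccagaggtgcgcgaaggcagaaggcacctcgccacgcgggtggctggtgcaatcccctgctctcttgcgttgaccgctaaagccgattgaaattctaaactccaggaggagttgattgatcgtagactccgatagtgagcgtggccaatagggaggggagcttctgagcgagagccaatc
*Mthfd2*: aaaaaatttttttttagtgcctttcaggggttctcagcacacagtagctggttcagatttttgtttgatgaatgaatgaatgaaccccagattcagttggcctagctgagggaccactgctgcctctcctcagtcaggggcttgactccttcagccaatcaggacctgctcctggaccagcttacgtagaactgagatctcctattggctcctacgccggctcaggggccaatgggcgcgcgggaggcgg
*Pycr1*: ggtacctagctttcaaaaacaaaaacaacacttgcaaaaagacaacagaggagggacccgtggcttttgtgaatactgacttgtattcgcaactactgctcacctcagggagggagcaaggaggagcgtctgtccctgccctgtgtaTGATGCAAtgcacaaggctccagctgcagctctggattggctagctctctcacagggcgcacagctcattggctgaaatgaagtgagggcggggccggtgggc

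For comparison, the stretches around the element are shown for *Asns*, the asparagine synthetase gene (chr6:7693210-7693252, minus strand), for *Chac1* (chr2:119351029-119351076, plus strand) and for *Slc7a11* (chr3:50443633-50443699, minus strand), where it occurs on both strands. The capitals again mark TGATGNAA or its reverse complement. *Asns* fell from 118.7 ± 14.1 to 47.7 ± 2.67 FPKM (log2 fold change -1.30). The genes shown are only some of the 8 genes of the ATF4 list whose windows hold the element. Of the others, *Atf3* fell less (log2 fold change -0.44) and *Fgf21* had a log2 fold change of -1.40. Whether the element bears on the size of any of these falls was not tested.
*Asns*: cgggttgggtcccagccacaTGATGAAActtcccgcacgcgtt
*Chac1*: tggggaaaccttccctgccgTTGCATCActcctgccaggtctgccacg
*Slc7a11*: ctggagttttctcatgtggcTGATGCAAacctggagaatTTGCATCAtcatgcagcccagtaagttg

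The libraries were alike in scale. FPKM summed to 352535 to 362762 per library, and log2 values correlated across genes at 0.991 to 0.992 within a group and at 0.961 to 0.963 between groups. FPKM do not give the depth, and only 28.3 to 30.2% of low values lay within 0.1 of a whole multiple of the smallest common step, so whole reads were not recovered and no counting interval is given. *Uba6* was at 16.6 ± 0.349 FPKM in sgCtrl and 11.7 ± 0.696 FPKM in sgUba6 cells (log2 fold change -0.49, SE 0.06, limma adjusted p = 0.000601). This mRNA level checks the labels only, since an mRNA with a frameshift can persist. The knockout itself was judged in the paper by western blots of UBA6 protein in sgCtrl and sgUba6 cells. All 9 epithelial markers were expressed, with sums of 2338 to 2381 FPKM in sgCtrl and 2449 to 2503 FPKM in sgUba6 libraries. Among them *Epcam*, *Cldn4* and *Cldn7* were called higher (log2 fold changes 0.90, 0.75 and 0.63) and *Krt8* lower (-0.22). Leukocyte markers (3 of 8 listed) summed to 0.395 to 0.511 and 1.22 to 1.84 FPKM, nearly all of it *Csf1r*, with *Ptprc* close to 0. Fibroblast markers (4 of 6 listed) summed to 2.96 to 3.19 and 5.40 to 6.70 FPKM, mostly *Pdgfra*, with *Dcn* close to 0, and 1 of 5 endothelial markers was listed. The part of these shifts in the levels of the enzymes was not tested. In bulk RNA, fewer cells of a type and less mRNA per cell cannot be told apart.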

How the data were processed

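The authors deposited a table of FPKM per gene for the 6 libraries, with their own fold changes, p-values and q-values, which hold their comparison and were not used. The paper's methods name a directional NEB Next Ultra kit, Cutadapt, HISAT2 (GRCm38), StringTie and Cuffdiff. The labels name a TruSeq kit and, in the submitters' processing notes, CASAVA 1.8, Trimmomatic, FastQC, HISAT2, RSEM, edgeR and mm10. No source read says which made the deposited values, so the strandedness and the treatment of shared reads are uncertain.

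FPKM were transformed to log2(FPKM + 0.5) and compared with limma 3.58.1 (trend, two-sided, Benjamini-Hochberg) in R 4.3.3 over the 12190 genes that reached 0.5 FPKM in 3 or more libraries. Isozyme ratios of 4 pairs were compared with exact permutation tests, and 1 of the pairs is not reported here, nor is 1 gene that the rule below names. Similar genes were searched with blastn 2.17.0 in GENCODE M21, in which all 19255 identifiers were found. Promoter sequences are RefSeq's. Python 3.11.15 with matplotlib 3.10.9 drew the figures. The members and lists were chosen with earlier results of these data known. The text names all 10 members, up to 4 called genes of each list with the largest change, *Uba6*, *Atf4*, *Myc* and counterpart isozymes; others it names were chosen after their values were seen. In a simulation of sgUba6 against sgCtrl over 12190 genes, limma recovered 24% of 50 genes changed 1.25-fold and 74% of those changed 1.5-fold. It recovered 88% of 50 changed 2-fold, 100% of 50 changed 4-fold, and made 4 false calls. The simulation changed few genes and drew independent normal noise, whereas 22.7% of the real genes were called lower and 24.7% higher. Its recovery and false calls therefore do not give those of the real comparison. Alternatives were another constant, filter, scaling or trend setting, a replicate block, and leaving out each library.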

Additional observations from a re-analysis of the deposited data

How the results depend on the processing

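Under the 14 alternatives, all 9 tested enzymes kept their direction and their call, with log2 fold changes of -1.11 to -1.04 for *Phgdh*, -1.35 to -1.25 for *Mthfd2* and -0.47 to -0.32 for *Pycr1*, whose adjusted p from limma reached 0.0485. With no filter, 1 of the 10 enzymes was called higher (*Aldh1l2*), because the filter no longer removed it, and 2 genes of glycine cleavage and serine catabolism were. Quantile normalization, which shifted the median of all genes by -0.03, gave 1 higher transport gene and 2 higher genes among the other regulators. Leaving out 1 library gave 1 to 3 higher genes among the folate partners (1 without sgCtrl library 1 or sgUba6 library 3), 1 to 2 among the ATF4 list (1 without sgCtrl library 3 or sgUba6 library 3) and 1 to 2 among the other regulators (2 without sgUba6 library 3). The cause of these changes was not tested. Of the counts and ratios, 218 values moved by less than their limit and 11 moved further. Of the single genes, 495 values kept direction and call and 11 lost the call, all of *Mthfs* or *Pycrl*, and none reversed.

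The replicate numbers do not pair the libraries: deviations of same-numbered libraries correlated at 0.02, -0.06 and -0.02. With a replicate block, 2552 genes were lower and 2718 higher, 9 enzymes remained lower, 2 glycine cleavage and serine catabolism genes and 1 gene of the ATF4 list were called higher. The number of libraries and the unknown depth limit the precision, most for *Aldh1l2* and other low genes.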
